A study of Mus musculus with 28 samples.

Results

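In mouse embryonic stem cells, 6118 H3K27ac regions lay at the end of a protein-coding gene and shared no base with an H3.3 region. They were chosen by position from the consensus lists of H3K27ac and H3.3 regions, both on the mouse build mm10. A region was taken if it lay on chromosomes 1 to 19, was under 10 kb wide, had a centre no more than 1 kb from an end of a protein-coding gene in RefSeq, and did not overlap H3.3. The H3K27ac list held 57857 regions, of which 57327 were on these chromosomes and 7372 had a centre at a gene end. Of those, 7347 were under 10 kb and 25 were 10 kb or wider. The remaining step removed 1229 regions that shared bases with H3.3, so the H3.3-free regions were 83.3% of the gene-end regions under 10 kb. They covered 7.03 Mb. Another 48694 of the 57327 autosomal H3K27ac regions also shared no base with H3.3. The H3.3-free share was thus higher over all autosomal H3K27ac regions than at gene ends. The overlap with H3.3, the width and the position at a gene end were selected on, so these counts are a description and no test was made on them.

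The regions came from CUT&RUN, in which an antibody directs a nuclease to a chromatin feature in nuclei and the released fragments are sequenced. The cells were E14 (ES-E14TG2a) mouse embryonic stem cells, a male line kept undifferentiated with the cytokine LIF. The series holds 28 libraries, 7 each for H3.3, H3K27ac, H3K122ac and a control without primary antibody. For each target, 2 libraries were wildtype. The others came from mutant cells in which the lysine that is acetylated in H3K122ac is replaced by alanine in histone H3.3, the product of the genes H3f3a and H3f3b. Their labels give each gene as WTWT, WTA or AA, which reads as no, 1 or 2 alanine alleles. The genotypes were H3f3a_AA_H3f3b_WTWT, H3f3a_WTWT_H3f3b_AA and H3f3a_WTA_H3f3b_AA, with 1 library per target each, and H3f3a_AA_H3f3b_WTA, with 2 from separate clones. The lists give a chromosome, a start and an end for each region, with no value per library. A region therefore cannot be assigned to wildtype or mutant cells here, the depth behind it is unknown, and the genotypes were not compared. An absent region means that none was listed, and not that the mark was measured as absent.

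Acetylated lysine 27 of histone H3, or H3K27ac, is placed mainly by the acetyltransferases p300 and CBP and is found at active promoters and enhancers. H3.3 is a histone variant that is built into chromatin outside DNA replication, at active promoters, enhancers and gene bodies by the chaperone HIRA and at repeats by ATRX and DAXX. Promoters of broadly expressed mammalian genes usually lie in CpG islands, where the dinucleotide CpG has not been depleted, whereas many promoters of tissue-specific genes are CpG-poor and some carry a TATA box.

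The sequences before the starts of 10 genes with an H3.3-free region at the start are shown to give the range of promoters concerned. They are the 250 bases before the start, from RefSeq (GRCm38.p6, the assembly of mm10), in the direction of the gene. Capitals mark matches on either strand to 8 short motifs. The first 8 genes have the start inside their widest H3.3-free region, with 1 gene for each of 8 gene groups described below. Rpl13 (chr8:123102100-123102349, plus strand) encodes a protein of the large ribosomal subunit. Atp5j2 (chr5:145191542-145191791, minus strand) encodes a subunit of ATP synthase, and Psmd1 (chr1:86064369-86064618, plus strand) a subunit of the proteasome cap. Snrpa1 (chr7:66060086-66060335, plus strand) encodes a protein of the U2 splicing particle, and Polr2c (chr8:94857200-94857449, plus strand) a subunit of RNA polymerase II. Cdt1 (chr8:122567765-122568014, plus strand) encodes a replication licensing factor, and Hat1 (chr2:71389010-71389259, plus strand) a histone acetyltransferase. Nanog (chr6:122707239-122707488, plus strand) encodes a pluripotency factor. Accsl (chr2:93930483-93930732, minus strand) and Asb16 (chr11:102268501-102268750, plus strand) had the lowest CpG content among genes with TATAAA in this window. Their starts lay outside the H3.3-free regions of 218 bp and 991 bp that were near them.
Rpl13: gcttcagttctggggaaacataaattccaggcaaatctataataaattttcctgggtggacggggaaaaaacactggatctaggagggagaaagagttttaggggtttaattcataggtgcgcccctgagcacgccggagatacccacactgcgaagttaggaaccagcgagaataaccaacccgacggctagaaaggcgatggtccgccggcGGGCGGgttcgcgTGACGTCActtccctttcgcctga
Atp5j2: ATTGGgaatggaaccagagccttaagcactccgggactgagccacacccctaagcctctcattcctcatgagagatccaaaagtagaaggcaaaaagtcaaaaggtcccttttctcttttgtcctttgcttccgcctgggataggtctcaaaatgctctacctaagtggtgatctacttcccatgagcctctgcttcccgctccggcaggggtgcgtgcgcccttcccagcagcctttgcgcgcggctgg
Psmd1: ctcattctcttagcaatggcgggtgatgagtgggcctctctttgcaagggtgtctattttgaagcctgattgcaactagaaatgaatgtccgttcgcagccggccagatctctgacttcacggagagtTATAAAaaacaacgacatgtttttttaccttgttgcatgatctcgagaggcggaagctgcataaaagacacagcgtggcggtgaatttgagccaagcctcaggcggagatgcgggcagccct
Snrpa1: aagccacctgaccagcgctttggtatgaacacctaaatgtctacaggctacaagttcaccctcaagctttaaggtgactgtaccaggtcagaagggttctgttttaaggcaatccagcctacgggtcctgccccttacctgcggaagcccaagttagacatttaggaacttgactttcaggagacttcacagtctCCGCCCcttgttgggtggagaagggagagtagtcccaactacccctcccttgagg
Polr2c: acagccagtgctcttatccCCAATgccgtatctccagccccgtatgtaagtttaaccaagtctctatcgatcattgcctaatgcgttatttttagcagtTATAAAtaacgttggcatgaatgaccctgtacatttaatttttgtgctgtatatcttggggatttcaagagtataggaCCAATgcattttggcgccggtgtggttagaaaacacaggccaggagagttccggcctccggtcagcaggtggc
Cdt1: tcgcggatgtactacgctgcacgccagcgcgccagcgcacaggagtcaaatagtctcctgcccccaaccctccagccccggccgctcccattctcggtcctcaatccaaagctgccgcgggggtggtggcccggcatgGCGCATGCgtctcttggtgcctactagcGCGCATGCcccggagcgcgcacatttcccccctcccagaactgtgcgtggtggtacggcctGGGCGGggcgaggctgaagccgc
Hat1: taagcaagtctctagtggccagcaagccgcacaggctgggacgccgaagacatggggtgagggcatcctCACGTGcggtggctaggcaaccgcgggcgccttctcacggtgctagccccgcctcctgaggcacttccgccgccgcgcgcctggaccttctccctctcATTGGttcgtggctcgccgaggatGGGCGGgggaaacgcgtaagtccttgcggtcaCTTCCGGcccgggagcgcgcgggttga
Nanog: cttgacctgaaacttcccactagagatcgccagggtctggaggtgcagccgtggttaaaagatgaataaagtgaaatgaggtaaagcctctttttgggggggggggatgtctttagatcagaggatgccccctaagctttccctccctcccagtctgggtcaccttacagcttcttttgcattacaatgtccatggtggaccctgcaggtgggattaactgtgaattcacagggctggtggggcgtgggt
Accsl: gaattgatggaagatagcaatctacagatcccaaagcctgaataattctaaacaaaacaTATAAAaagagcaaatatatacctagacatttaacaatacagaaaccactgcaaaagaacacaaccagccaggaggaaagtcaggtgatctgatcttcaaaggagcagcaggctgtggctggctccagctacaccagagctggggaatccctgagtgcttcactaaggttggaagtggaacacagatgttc
Asb16: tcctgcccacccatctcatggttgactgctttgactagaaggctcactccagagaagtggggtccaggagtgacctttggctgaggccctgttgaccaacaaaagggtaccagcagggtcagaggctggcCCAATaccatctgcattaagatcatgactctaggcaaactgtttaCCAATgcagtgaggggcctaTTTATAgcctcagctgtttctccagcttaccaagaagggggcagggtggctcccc

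Among these 10 the sequences differed most in CpG content. The CpG ratio divides the observed number of CpG by the number that the C and G content would give. It was 1.00 for Rpl13 with 17 CpG and 0.946 for Hat1 with 27 CpG. For Nanog it was 0.182 with 3 CpG, and Accsl and Asb16 had 0 CpG. Rpl13 held TGACGTCA, the element bound by CREB and ATF factors, and Cdt1 held GCATGCGC, the core of the NRF1 element. Hat1 held the ETS core CCGGAAG beside a CCAAT box, a GC box and an E-box, and Nanog held none of the 8 motifs. A match states that the letters are there and does not show that a factor binds.

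Most of the H3.3-free regions were short. Their widths ran from 176 to 9979 bp, with a median of 794.5 bp and a middle range (first to last quartile) of 420 to 1455.75 bp. The median was 1401 bp for the 1229 gene-end regions that shared bases with H3.3. It was 788 bp for the 48694 other autosomal H3K27ac regions without H3.3, and 812 bp over all autosomal H3K27ac regions. Thus the H3.3-free gene-end regions had about the width of H3K27ac regions elsewhere, while the H3.3-sharing ones were wider. A wider region has more bases that can overlap H3.3, so the width and the overlap are not independent measures. By width, 1870 were under 500 bp, 1800 were 500 bp to under 1000 bp, and 1538 were 1000 to under 2000 bp. Another 809 were 2000 to under 5000 bp and 101 were 5000 bp or wider.

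**Figure D1:**
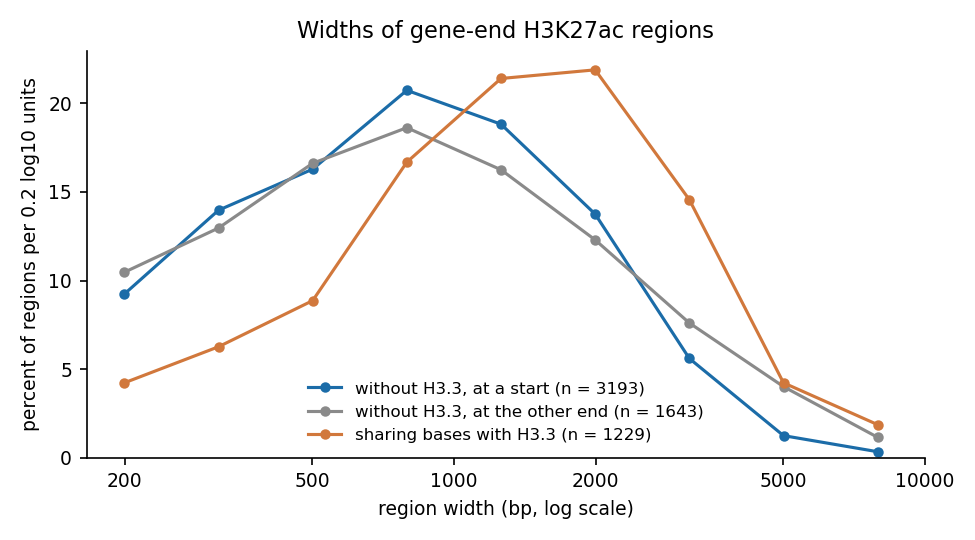
Widths of gene-end H3K27ac regions. The x axis gives the region width in bp on a log scale and the y axis the percent of regions in each bin of 0.2 log10 units, for H3.3-free regions at a gene start (n = 3193) and at the other end (n = 1643) and for regions sharing bases with H3.3 (n = 1229). The H3.3-sharing curve lies to the right of the others, with medians of 1401 bp against 795 bp at starts and 791 bp at other ends.

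The 10 widest H3.3-free regions lay at genes of several functions. The widest, 9979 bp, was at the far end of Ctnnb1, the gene of β-catenin, the effector of WNT signalling, and the nearest H3.3 region was 264244 bp away. Zcchc10, a zinc knuckle gene, had 9835 bp and Yars, the tyrosyl-tRNA synthetase gene, 9745 bp, both at the far end. Rpl30, a ribosomal protein gene, had 9578 bp and Ehd1, a gene of endocytic recycling, 9516 bp. At the start of Sox15, a SOX factor gene, the region measured 9340 bp. Clk1, a kinase gene for splicing factors, had 9251 bp, and Sgo1, which protects centromeric cohesion, had 8987 bp at its far end. The start of Mov10, an RNA helicase gene, had 8529 bp and the far end of Topbp1, of the replication checkpoint, 8319 bp. For 7 of these 10 the reference gave the strand, and 5 of the 7 had their centre at the far end of the gene.

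Which end of a gene is the start was known where the RefSeq promoter table gave its strand. For 5025 regions it did, and for 1093 it was not given. A region was placed by its centre, so a wide one can cover both ends of a short gene. Of the 5025, 3193 (63.5%) lay at a start, 1643 (32.7%) at the other end, where transcripts finish, and 189 (3.76%) within 1 kb of both a start and an other end. Together 67.3% (66.0 to 68.6%, exact binomial 95% interval, which covers counting error only) were at a start. Among regions sharing bases with H3.3, 1008 of 1063 (94.8%, 93.3 to 96.1%) were at a start. This contrast held in each width class. From 1000 to under 2000 bp, 71.2% (68.7 to 73.7%) of H3.3-free regions and 95.0% (92.2 to 97.1%) of H3.3-sharing regions were at a start. At 5000 bp or more the shares were 35.0% (24.7 to 46.5%) of 80 and 84.2% (68.7 to 94.0%) of 38. The intervals did not overlap in these 2 classes or in the other 3. Neighbouring regions are not independent, and no test of the difference was made.

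At starts, the H3.3-free regions lay more often inside the gene than before it. Of 3743 pairs of a region and a start, 2337 (62.4%) had the centre after the start, in the direction of transcription, and 1405 before it. The median centre was 203.5 bp after the start. For H3.3-sharing regions 53.3% of 1196 pairs had the centre after the start and the median was 46.25 bp. Under 500 bp the shares after the start were alike, 58.9% for H3.3-free and 59.6% for H3.3-sharing pairs, and from 1000 to under 2000 bp they were 65.7% and 54.1%. The start base itself was covered in 45.1% of the H3.3-free pairs and in 70.1% of the H3.3-sharing pairs. In 1248 H3.3-free pairs the whole region lay after the start and in 807 the whole region lay before it. Coverage of the start follows width, since a narrow region can lie within 1 kb without reaching the start. In the class of 500 to under 1000 bp, 26.0% (23.5 to 28.7%) of H3.3-free pairs and 41.0% (35.0 to 47.1%) of H3.3-sharing pairs covered the start. Under 500 bp the values were 9.39% (7.74 to 11.3%) and 9.22% (5.00 to 15.3%), with intervals that overlapped. From 1000 to under 2000 bp they were 76.6% (73.8 to 79.1%) and 81.2% (76.9 to 85.0%), which also overlapped.

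**Figure D2:**
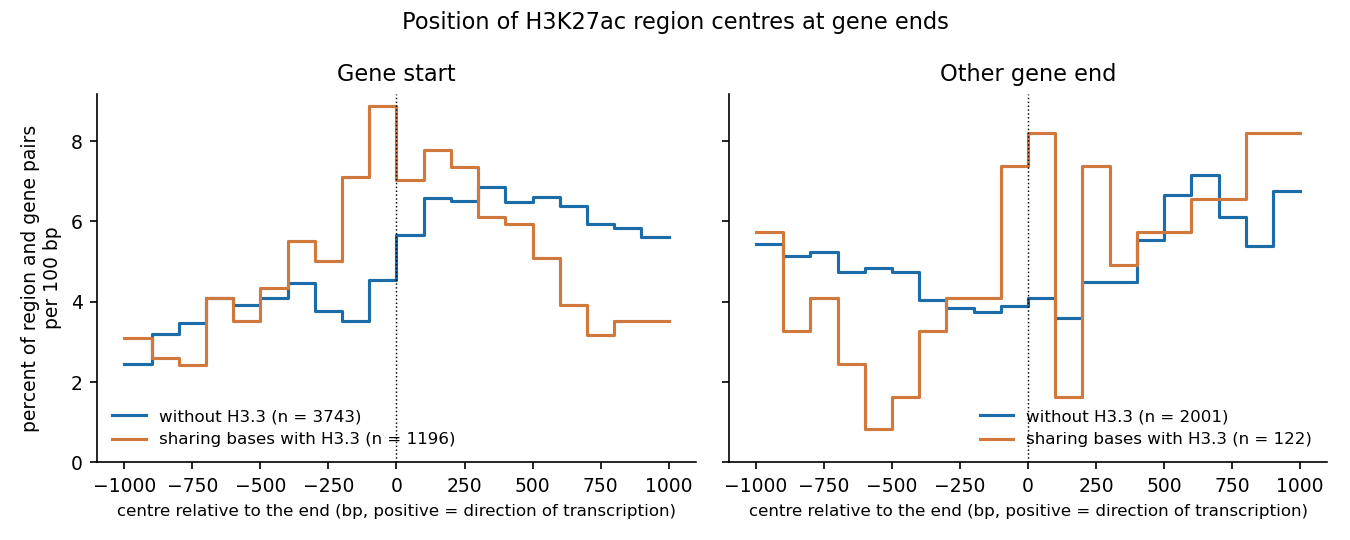
Position of H3K27ac region centres relative to gene starts (left) and other gene ends (right). The x axis is the distance of the centre from the end in bp, positive in the direction of transcription, and the y axis the percent of region and gene pairs per 100 bp. H3.3-free centres at starts are most frequent after the start (62.4% of 3743 pairs), whereas H3.3-sharing centres peak close to it. The H3.3-sharing curve at other ends rests on few pairs (n in the legend).

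Some starts had acetylated regions on both sides. Of the genes with an H3.3-free region at the start, 3362 had 1 there and 190 had 2 or more. In 163 of the 190 the centres lay on both sides of the start, in 21 all lay after it and in 6 all before it. Over both gene ends, 4634 genes had 1 such region, 1060 had 2, 81 had 3, 3 had 4 and 1 had 5. The gene with 5 was Ppp2ca, the catalytic subunit of the phosphatase PP2A, whose widest measured 1021 bp. Serf2 (widest 856 bp), Rpf1, a ribosome biogenesis gene (1242 bp), and Cox8a, of cytochrome c oxidase (2100 bp), had 4. Fam168b had 3, the widest of 2350 bp.

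At the other end of genes, the H3.3-free regions lay near other acetylation more often than those at starts. The 1643 regions there had a median width of 791 bp. The nearest other H3K27ac region was a median of 1477 bp away, against 3064 bp for the 3193 regions at starts. It lay within 1 kb for 34.5% against 23.0%. H3.3-sharing regions had the same direction, with 1539 bp for 55 at other ends and 2520.5 bp for 952 at starts, and 40% against 24.6% within 1 kb. For other autosomal H3K27ac regions without H3.3 the median was 1838 bp. At other ends, the centre of H3.3-free regions lay past the end of the gene in 54.2% of 2001 pairs, and 42.9% of pairs covered the end base. A start in the promoter table, of any gene, lay within 1 kb of 28 of the 1643 regions (1.70%). The table held 16457 of the 20665 autosomal protein-coding genes. Starts of the others could not be counted, so 28 is a lower limit. Regions near the annotated start of a protein-coding gene with a strand are already counted at starts, so these 28 are alternative starts or starts of other genes. The nearest H3.3 region was a median of 41048 bp from the regions at other ends and 73917 bp from those at starts.

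H3.3 was usually far away. The median distance from an H3.3-free region to the nearest H3.3 region was 58069.5 bp (middle range 18105 to 167533 bp). It was under 1 kb for 281 regions (4.59%), 1 to 10 kb for 701 (11.5%), 10 to 100 kb for 2892 (47.3%), 100 kb to 1 Mb for 2010 (32.9%) and over 1 Mb for 234 (3.82%). For H3.3-free H3K27ac regions that were not at gene ends the median was 73946.5 bp. The distance depends on how many H3.3 regions were listed, which was 5446 in all.

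The values on either side of the limits of the rule were close. The widest regions inside were those of Yars, Zcchc10 and Ctnnb1 given above, and regions just outside were at Max (10286 bp) and Grtp1 (10465 bp). Centres at Sfi1, Zc3h15 and Arhgap17 lay 1000 bp from the gene end, inside the rule, while those at Trpm7 (1000.5 bp), Ddx18 and Mib1 (1001 bp each) were outside. The regions at Mpc2 and Dcaf6, at Rev3l and at Dnajc22 adjoined an H3.3 region without a shared base, with a gap of 0 bp. Those at Carf and Notch4, which shared 1 bp, and at Dusp11, which shared 5 bp, were outside.

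Of 20665 autosomal protein-coding genes, 5779 (28.0%) had an H3.3-free region at an end. This share is the background for the gene groups below. Its base includes genes without a gene-end H3K27ac centre. A group can therefore exceed it through more gene-end H3K27ac of either kind, without differing in H3.3. Another 1123 genes (5.43%) had only gene-end regions that shared bases with H3.3, 395 had both kinds, and 22 had only regions of 10 kb or more. The other 13741 genes had no H3K27ac centre at an end. Of the 16457 genes with a known strand, 3552 (21.6%) had an H3.3-free region at the start and 1133 (6.88%) at the other end only. These places are those of the centre. In 315 of the 1133 (27.8%) the start base itself lay in an H3K27ac region of any kind, against 17.9% of all genes with a strand. Of the 3552, 765 also had one at the other end. In 53 of these a single region was within 1 kb of both ends. Genes with the region at the start had a median length of 20.7 kb and those with it at the other end only 18.4 kb, against 17.5 kb over all genes. The genes with a region at both ends were shorter, with a median of 14.8 kb.

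Genes with an H3.3-free region at the start mostly had further acetylation. The median number of H3K27ac regions in or within 1 kb of the gene was 3, against 1 over all genes. More than 1 was found at 74.3%, against 37.1% of all genes, but each had at least 1 by selection. The 888 genes with an H3.3-sharing start region and no H3.3-free region also had a median of 3, with 68.6% above 1. An H3.3 region lay in or within 1 kb of 11.1% of the genes with an H3.3-free region at the start. It did so for 41.9% of those with the region at the other end only and 20.6% of all genes. The difference between the first 2 groups partly follows from the rule, since a start region that overlaps H3.3 is not counted. Of the 1133 genes with the H3.3-free region at the other end only, 249 (22.0%) had an H3.3-sharing H3K27ac region at the start.

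Divergent gene pairs, whose starts lie close together on opposite strands, often had an H3.3-free region at the start. Of 1469 genes in 738 such pairs, 43.0% (40.5 to 45.6%) had one, against 19.5% (18.9 to 20.1%) of the other genes with a strand. The background for this count is 21.6%. In pairs, 21.1% of genes had only an H3.3-sharing region at the start, against 5.52% of the others, so both kinds of region were more frequent there. A gene of a pair can be counted through a region at its neighbour's start. A single H3.3-free region lay at both starts in 320 cases, with a median width of 1033.5 bp. The widest was at Tkfc and Ddb1, a DNA damage sensor gene (6592 bp). Next were Sf3b3, of the U2 particle, and Cog4, of the Golgi (6434 bp). The histone genes H2bc7 and H2ac7 shared 5881 bp, Dnajb4 and Fubp1 shared 5582 bp, and Brix1 and Rad1 shared 5258 bp.

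Regions in gene-dense places were near several ends. 5195 regions were near 1 gene end, 890 near 2, 30 near 3 and 3 near 4. The 3 with 4 ends were the region of H2ac7 and H2bc7, one of 209 bp at Tbcb, Polr2i and Ovol3, and one of 1177 bp at Psma4, Hykk and the gene AY074887. Those of Tstd1 and Usf1 (4178 bp) and of Timm13 and Tmprss9 (203 bp) had 3 ends. At such places the region cannot be assigned to a single gene.

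Genes of protein synthesis had H3.3-free regions more often than all genes (background 28.0%). They were found at 47 of 82 cytosolic ribosomal protein genes (57.3%, 45.9 to 68.2%). Another 9 had only H3.3-sharing regions, which is also above the share of all genes (5.43%). Over all genes the counts were 5779 and 1123, a proportion similar to the 47 and 9 of these genes. The median of the widest H3.3-free region per gene was 2354 bp, against 918 bp over all genes with one. Rpl30 (9578 bp), Rps12 (7347 bp), Rpl27a (7076 bp) and Rpl28 (6225 bp) had the widest. The regions of the last 3 had their centre at the other end of the gene, and whether they also covered the start was not examined. Rpl10l, Rpl13a and Rpl22 had no H3K27ac centre at an end. Of 61 ribosomal protein genes with a strand, 17 (27.9%) had the region at the start, close to the background of 21.6%, and 16 had it at the other end only. The 36 aminoacyl-tRNA synthetase genes, which charge tRNAs, had 25 (69.4%), with the widest at Yars (9745 bp). Of 53 translation initiation factor genes 32 had one (60.4%), with Eif3b (5826 bp) and Eif2b5 (4540 bp) the widest.

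Genes of energy metabolism also had them more often than all genes. Of 80 genes for respiratory chain and ATP synthase subunits, 60 (75%, 64.1 to 84.0%) had an H3.3-free region. Another 9 had only H3.3-sharing ones (5.43% of all genes). The start had an H3.3-free region in 42 of 65 (64.6%). Atp5pb had 2855 bp, Ndufb9, of complex I, 2739 bp, and Atp5c1 2692 bp. Atp5g2, Cox4i1 and the muscle isoform gene Cox6a2 had no centre at an end. Mitochondrial ribosomal protein genes had them in 47 of 79 (59.5%), with 34 of 69 at the start, and the widest was at Mrpl57 (4675 bp). Import genes had them in 14 of 24 (58.3%), the widest at Tomm40, of the outer membrane pore (7059 bp). Genes of the tricarboxylic acid cycle had 8 of 15 (53.3%, 26.6 to 78.7%, an interval that included the background), with Pdhb, of pyruvate dehydrogenase, at 4691 bp. Glycolysis had 12 of 16 (75%), with Eno1 (5673 bp) and Pkm (2728 bp). Both hexokinase genes in the group, Hk1 and Hk2, had no centre at an end, although 5 and 8 H3K27ac regions lay in or near them. Genes of the cholesterol synthesis group had 14 of 22 (63.6%), among them Fdps, of farnesyl diphosphate synthase (1583 bp), and Acat2 (1045 bp).

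Protein folding and turnover followed the same direction. The proteasome, which degrades ubiquitin-marked proteins, had 27 of 38 genes (71.1%), with Psmd1 (4304 bp) and Psmb3 (3616 bp) the widest. Psmb4, a subunit of the constitutive core, and Psmb8 and Psmb11, subunits of the immune and thymic forms, had no centre at an end. The anaphase promoting complex, the ubiquitin ligase that ends mitosis, had 13 of 16 (81.2%), the highest share of the 40 groups. Ubiquitin conjugating enzymes had 16 of 30 (53.3%) with Ube2n at 6078 bp. The chaperonin that folds actin and tubulin had 7 of 9, and its other 2 genes had only H3.3-sharing regions (5.43% of all genes). Heat shock and ER chaperones had 16 of 26 (61.5%), led by Dnaja2 (5516 bp) and Hsp90aa1 (5232 bp). The stress-induced genes Hspa1a and Hspa1b had no H3K27ac region in or near them. Autophagy genes had 18 of 30 (60%), with the cargo receptor gene Sqstm1 at 5763 bp.

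RNA production and processing showed high shares as well. RNA polymerase subunits had 22 of 28 (78.6%), with 14 of 22 at the start, and Polr2d (3173 bp) and Polr2j (3029 bp) were widest. The Sm, LSm and SF3 splicing proteins had 31 of 41 (75.6%), led by Sf3b3 (6434 bp) and Lsm14b (5959 bp). The RNA exosome and polyadenylation factors had 14 of 19 (73.7%), with Exosc5 at 5581 bp. The hnRNP and SR proteins had 18 of 30 (60%), with Srsf3 (3916 bp) and Srsf4 (3524 bp). In this group 6 more had only H3.3-sharing regions, also above the share of all genes (5.43%). Mediator had 18 of 28 (64.3%), the general transcription factors 15 of 29 (51.7%) and the nuclear pore 12 of 24 (50%). Their widest regions were at Med19 (4445 bp), Taf11 (5367 bp) and Nup85 (8225 bp). The nuclear pore share depended on the window and was 95.8% at 2500 bp (40.1% of all genes).

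DNA replication and repair had shares of 65.1% (28 of 43) and 61.8% (34 of 55). Another 7 and 9 genes had only H3.3-sharing regions, also above the share of all genes (5.43%). Of the genes for replication, Cdt1 had 5515 bp at the start, and the helicase genes Mcm7 (5174 bp) and Mcm2 (4034 bp) had theirs at the other end. Cdc6, Gins2 and Mcm5 had no centre of an H3K27ac region at an end. For repair, Ddb1 (6592 bp), Fancc (4474 bp), Lig3 (3802 bp) and Ogg1 (3515 bp) were the widest, and Atr, Ercc1 and Lig1 had no centre at an end. Kinesins, the microtubule motors, had 10 of 37 (interval 13.8 to 44.1%), close to the background, with Kif18a at 2260 bp. Another 6 kinesin genes had only H3.3-sharing regions, above the share of all genes (5.43%).

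Chromatin genes varied by group. Acetyltransferases, bromodomain readers and deacetylases, which write, read and erase acetylation, had 20 of 30 (66.7%, 47.2 to 82.7%). Hat1 (3338 bp) and the deacetylase gene Sirt1 (2645 bp) had the widest. Crebbp, which encodes CBP, an enzyme that places H3K27ac, and Brd3 had no centre at an end, but 13 and 11 H3K27ac regions lay in or near them. Subunits of NuRD, BAF and Polycomb complexes had 22 of 50 (44%, 30.0 to 58.7%), led by Rbbp4 (4843 bp). The regions listed for Smarcd2 (3457 bp) and Actl6a (3356 bp) were the same ones that lay at Psmc5 and Mrpl47. Replication-dependent histone genes, which lie in clusters and share regions, had 33 of 63 (52.4%), with H2bc3 at 3119 bp and H4c9 at 3091 bp. The zinc finger genes named Zfp had 153 of 360 (42.5%, 37.3 to 47.8%), and 116 of 301 had it at the start. Another 42 had only H3.3-sharing regions, also above the share of all genes (5.43%).

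Genes of the pluripotent state had shares whose intervals included the background of 28.0%. H3K27ac in or within 1 kb of the gene was listed at 31 of 32 naive pluripotency genes, against 52.9% of all genes, and at 5 of 43 lineage regulators. H3.3-free gene-end regions were found at 13 of the naive genes (40.6%, 23.7 to 59.4%). This share depended on the window, as did those of other groups. It was 84.4% of the naive genes at 2500 bp (40.1% of all genes). When any part of the region lay within 1 kb, it was 65.6% of the naive genes (35.0% of all genes). Their widest were at Nanog (4062 bp, at the start, with H3.3 2996 bp away), the RNA-binding protein gene Lin28a (3492 bp), Dppa4 (3400 bp) and the core factor gene Sox2 (2081 bp). Another 5 had only H3.3-sharing regions (5.43% of all genes). The markers Dppa2, Dppa3 and Dppa5a had no H3K27ac centre at an end. Formative and primed genes, which rise as cells leave the naive state, had 6 of 18 (33.3%, 13.3 to 59.0%), among them Etv4 (6260 bp) and the Nodal antagonist gene Lefty2 (3353 bp). None of the 11 formative genes with a strand had one at the start. With only 11 genes this count is imprecise.

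Most groups of genes of other cell types had few of these regions. Of 43 lineage regulators, transcription factors of germ layers and organs, 3 had one (6.98%, 1.46 to 19.1%). They were Tbx6 (693 bp), Gata3 (307 bp) and Mixl1 (177 bp), all below the median of 918 bp. Cdx2 and Eomes had no H3K27ac in or near the gene. Primitive endoderm and trophoblast markers had 3 of 25 (12%, 2.55 to 31.2%). These were Sparc (1177 bp), Lamb1 (294 bp) and Lamc1 (250 bp), genes of the basement membrane. Meiosis and germline genes had 7 of 29 (24.1%, 10.3 to 43.5%), close to the background, and Msh4 (2295 bp) had the widest. Interleukins and chemokines had 8 of 74 (10.8%) and potassium channels 7 of 91 (7.69%). Keratins had 1 of 53, Krt42 (2845 bp). Olfactory receptors had 1 of 1100, Olfr111 (1406 bp), and vomeronasal receptors 2 of 352, Vmn2r82 (609 bp) and Vmn1r1 (374 bp). Defensins had 0 of 70, which allows a share of up to 4.29% when 3 counts are taken as the limit and up to 5.13% by the exact interval used for the other groups.

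**Figure D3:**
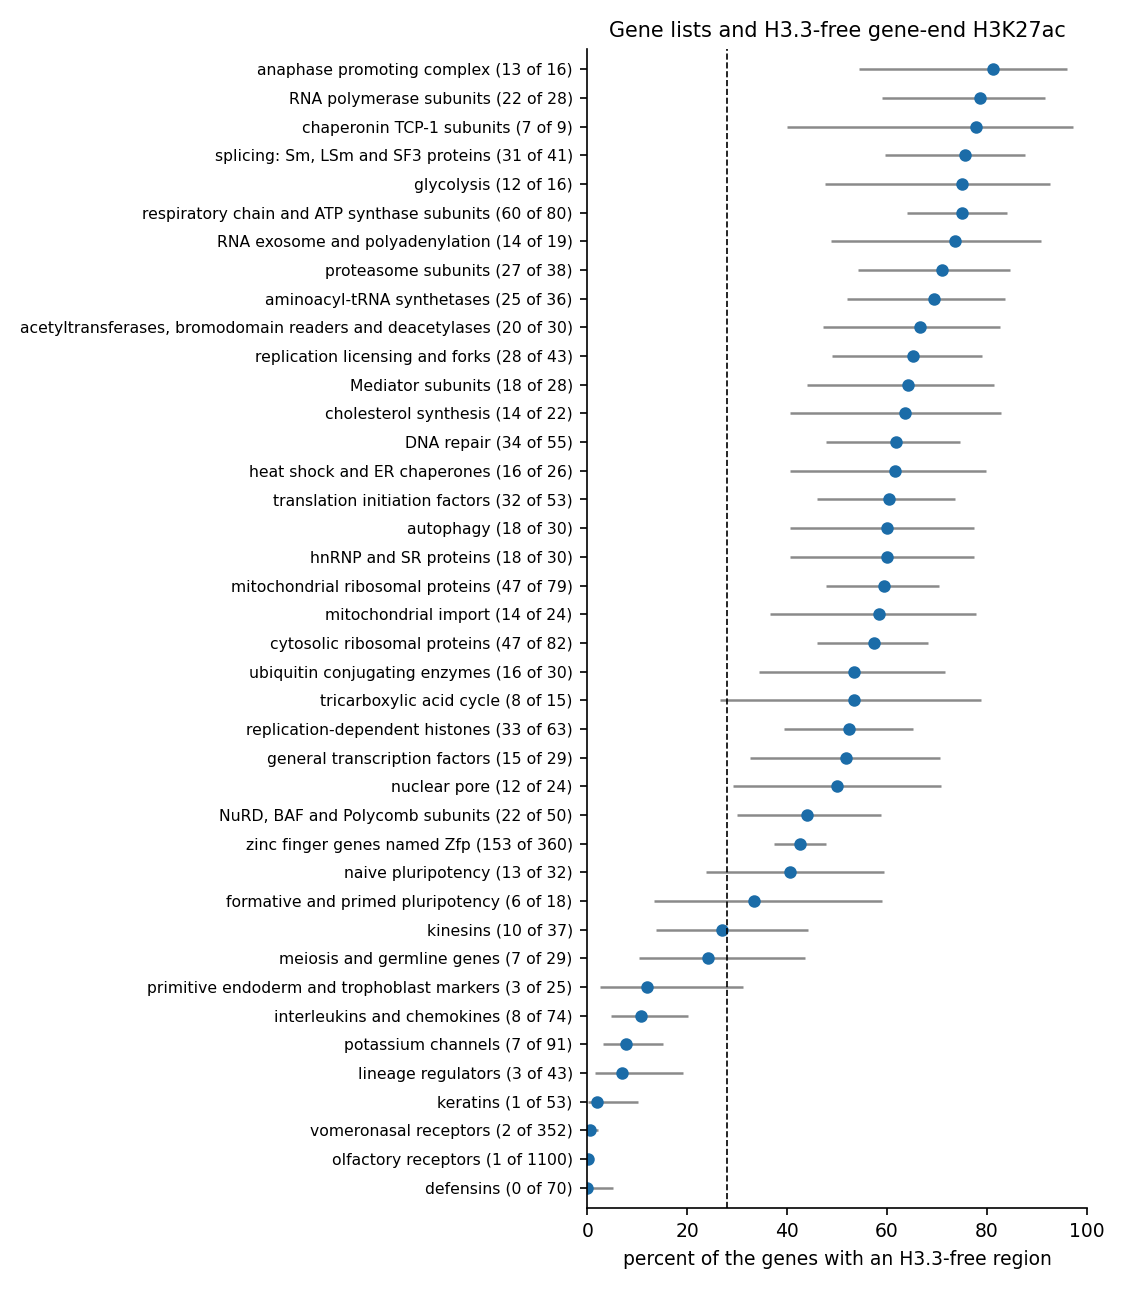
Share of genes with an H3.3-free H3K27ac region at an end, for 40 gene groups. Points give the percent of the genes in each group, horizontal lines the exact binomial 95% interval, and the dashed line the share over all autosomal protein-coding genes (28.0%). The anaphase promoting complex (81.2%) and the RNA polymerase subunits (78.6%) stand at the top, and olfactory receptors and defensins at the bottom.

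Of the 40 groups, 30 lay above the background and 10 below it. The 10 below were the kinesins and the 9 groups of genes of other cell types and of meiosis. In the groups above, genes with only H3.3-sharing regions were also mostly more frequent than over all genes (5.43%). The exceptions were ubiquitin conjugating enzymes, RNA polymerase subunits, and formative and primed genes. The higher shares were thus mostly of gene-end H3K27ac of both kinds. Neighbouring genes share regions and the groups were picked with earlier results of these data known, so no set was tested.

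Promoters with an H3.3-free region were mostly rich in CpG. Sequences were read for 14811 genes whose start in the promoter table lay within 1 kb of the annotated start. Of these, 3309 had an H3.3-free region and no H3.3-sharing region at the start. Their median CpG ratio was 0.755 (0.744 to 0.766), and 70.7% had a ratio of 0.6 or more. Over all 14811 genes the median was 0.565 and the share 47.2%. For 9565 genes without a gene-end H3K27ac centre the median was 0.361 and the share 33.9%. For 1111 genes with an H3.3-sharing region at the start the median was 0.776 (0.764 to 0.788), and the intervals of the H3.3-free and H3.3-sharing medians overlapped. The groups differed more at the CpG-poor end. A ratio under 0.3 was found in 307 (9.28%) of the H3.3-free starts, in 38 (3.42%) of the H3.3-sharing ones and in 32.1% of all. Genes with the H3.3-free region at the other end only also had CpG-rich starts, with a median of 0.736 and 68.6% at 0.6 or more.

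**Figure D4:**
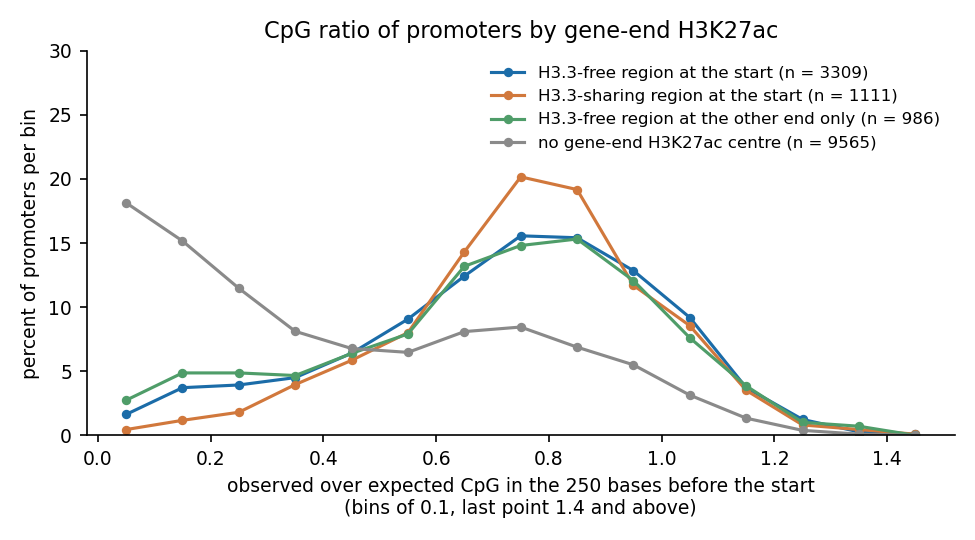
CpG ratio of the 250 bases before the start, by gene-end H3K27ac. The x axis is observed over expected CpG in bins of 0.1 and the y axis the percent of promoters in each bin. The 3 groups with gene-end H3K27ac peak between 0.7 and 0.9, and the genes without a gene-end H3K27ac centre (n = 9565) are most frequent in the lowest bin.

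The H3.3-free regions at CpG-poor starts were somewhat shorter, and so were their genes. The widest region per gene had a median of 766 bp below a CpG ratio of 0.3 and 911 bp at 0.9 or more, and the median gene length was 11.8 kb and 24.4 kb. By group, among starts with an H3.3-free region, the median ratio was 0.576 over 109 Zfp genes, 0.609 over 5 naive pluripotency genes and 0.698 over 40 respiratory chain genes. It was 0.966 over 9 genes of the anaphase promoting complex and 0.986 over 12 hnRNP and SR protein genes. Within the respiratory chain the ratio ran from 0.327 to 1.12, so a group was not uniform.

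The 8 motifs were searched on both strands of the 250 bases, and no motif contains another. Shares are given for the 3309 H3.3-free starts, then for the 14811 protein-coding genes above, then for all 32851 promoters of the table. GGGCGG, the GC box of SP and KLF factors, was in 58.8%, against 44.0% and 32.7%. CCGGAAG, the core of the ETS element, was in 17.1%, against 9.56% and 6.91%, and in 23.0% (20.5 to 25.5%) of the H3.3-sharing starts. GCATGCGC was in 5.92%, against 3.15% and 2.26%, and TGACGTCA in 3.05%, against 2.09% and 1.55%. CACGTG, the E-box of MYC and USF factors, was in 9.52%, against 6.80% and 6.02%. ATGGCGGC, a form of the YY1 element, was in 1.96%, against 1.22% and 1.03%. CCAAT, the NF-Y box, was in 39.5%, against 36.7% and 33.8%. TATAAA, the letters of a TATA box, was at any position of the 250 bases in 5.47%, against 12.9% and 12.4%. Its distance from the start was not examined. None of the 8 was found in 15.7%, against 23.4% and 32.7%. In the H3.3-sharing starts the shares were 61.4% for GGGCGG, 41.9% for CCAAT, 7.02% for CACGTG and 5.22% for GCATGCGC. They were 4.05% for TATAAA, 3.96% for TGACGTCA, 3.24% for ATGGCGGC and 13.3% for none. Each lay on the same side of the share of the 14811 genes as in the H3.3-free starts, so this profile was not particular to them. GC-rich letters are more frequent in GC-rich sequence, and the share for each motif was not adjusted for base composition.

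Histone promoters differed from the rest. Of 22 replication-dependent histone genes with an H3.3-free region at the start, 13 held TATAAA and 19 held CCAAT, while none held CCGGAAG. In the anaphase promoting complex 6 of 9 such starts held CCGGAAG, and in replication licensing and forks 8 of 16 did, the highest shares among the groups with at least 5 such starts. Other small groups varied. The nuclear pore had CCGGAAG in 3 of 7 starts, ubiquitin conjugating enzymes in 3 of 8 and general transcription factors in 4 of 11. Acetyltransferases, bromodomain readers and deacetylases had it in 3 of 9. It was in 0 of 7 kinesins, 0 of 5 genes of the tricarboxylic acid cycle and 0 of 5 naive pluripotency genes. It was in 1 of 10 genes of the RNA exosome and polyadenylation and 1 of 11 of NuRD, BAF and Polycomb. Zfp genes had it in 17 of 109 (15.6%), close to the 17.1% of all H3.3-free starts.

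A few H3.3-free regions also contained microRNA genes. Of 919 hairpins on these chromosomes in the RefSeq table, 22 lay wholly inside an H3.3-free gene-end region, and 2 regions held more than 1. The region of Mcm7 (5174 bp, H3.3 3354 bp away) held Mir106b, Mir93 and Mir25, which lie within the gene. The region at the other end of Fancc (4474 bp, H3.3 26919 bp away) held Mir23b, Mir27b, Mir24-1 and Mir3074-1. Mature sequences are shown because the seed (bases 2 to 8, in capitals) sets which transcripts a microRNA pairs with. The coordinates are chr5:138165787-138165807, chr5:138165574-138165596 and chr5:138165332-138165353 on the minus strand for the first 3, and chr13:63300760-63300780 and chr13:63301251-63301272 on the plus strand for the others (GRCm38.p6).
miR-106b-5p: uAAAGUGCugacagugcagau
miR-93-5p: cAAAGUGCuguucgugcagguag
miR-25-3p: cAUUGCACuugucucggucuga
miR-27b-3p: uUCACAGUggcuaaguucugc
miR-24-3p: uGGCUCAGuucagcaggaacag

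Of these, miR-106b-5p and miR-93-5p have the same seed, AAAGUGC, and the other 3 each have a different one. Acetylation over a hairpin does not show that the microRNA is made, since the hairpins of the first region lie inside a protein-coding gene. Ends of non-coding genes lay within 1 kb of the centre of 618 H3.3-free regions (10.1%), of which 505 were near a long non-coding RNA, against 14.6% of the H3.3-sharing regions.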

How the data were processed

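The 28 CUT&RUN libraries are represented by the authors' consensus lists for H3K27ac and H3.3, deposited as start and end positions with no score. Bowtie2, SAMtools, deepTools, MACS2 and mm10 are named, with no roles or versions, per the submitters' processing notes. How libraries were combined into a consensus is not given in the sources used here. H3K122ac and the antibody-free control were not analysed here. Positions were converted to 1-based and joined to RefSeq gene, promoter and microRNA tables of GRCm38.p6 in Python 3.11.15 with pandas 2.3.3 and numpy 2.4.6. Intervals for shares are exact binomial at 95% (scipy 1.17.1), and those for medians come from order statistics. Both cover counting error only. The interval code was tested on simulated positions. Depth is unknown, and with no value per library no test was made. The members and the gene lists were chosen with earlier results of these data known. Named genes are, per list, up to 4 with the widest members and up to 3, alphabetically, without a gene-end H3K27ac centre, besides the 10 widest members, the 5 genes with most members, the members with most gene ends and those beside each limit. Printed promoters share no base with an annotated gene, a condition added after the data were seen, as was the choice of microRNAs from members with more than 1 hairpin. In the lists, 12 names were not found. A few genes that this rule names are not reported here.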

Additional observations from a re-analysis of the deposited data

How the results depend on the processing

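With no counts or heights, depth limits were not measurable, and the settings tried bore on position, width and overlap. With a 500 bp window there were 3116 regions at 3251 genes, 79.4% of gene-end regions were H3.3-free, the median width was 891 bp, 70.0% lay at a start, H3.3 was 60947 bp away (median) and the CpG ratio was 0.719, against 0.756 over all genes with an H3.3-free region at the start. With 2500 bp there were 10859 regions, 87.2% H3.3-free, 59.2% at a start and 53217 bp from H3.3. Taking regions with any part within 1000 bp gave 84.5% H3.3-free, a median of 974 bp, 63.7% at a start and a CpG ratio of 0.768. Requiring no H3.3 within 1000 bp gave 79.4% and 62859 bp. Allowing H3.3 over less than 50% of the width kept 96.7% of gene-end regions, which then included regions that share bases with H3.3. Their median width was 882 bp and 71.3% lay at a start. The median distance to H3.3 was 42383 bp, with overlapping regions counted as 0 bp. The wider 50% of the H3K27ac list gave 3010 regions at 3212 genes, 77.0% H3.3-free and a median of 1473.5 bp. With genes of all biotypes 85.4% were H3.3-free and the CpG ratio was 0.721. Taking starts from the promoter table, an alternative chosen after seeing the data, gave 64.4% at a start. These settings change which regions are counted, and beyond that the cause was not tested. A width under 5000 bp and inclusion of the X chromosome left each of these 7 values within its interval or, for counts, within 1.5 times. Across the settings run for gene lists, 29 to 31 of 40 lay above the share of all genes. The shares themselves moved more, and at 2500 bp those of 18 of the 40 lists stayed within their interval. Kinesins moved above it in 5 settings, formative genes fell below it at 2500 bp, and at 500 bp naive pluripotency and chaperonin genes fell below it and meiosis genes moved above. No paired analysis was possible because the lists hold no value per library.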

Other observations

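The share of protein-coding genes with an H3.3-free H3K27ac region at an end differed between chromosomes, from 21.7% on chromosome 6 to 34.0% on chromosome 11. Chromosome 7 had 23.3% with olfactory and vomeronasal receptor genes counted and 29.3% without them, and chromosome 2 had 27.8% and 33.2%. Without these families, chromosome 6 was still the lowest at 23.5% and chromosome 11 the highest at 35.8%, so the range was as wide. Chromosome 11 holds, among the genes named above, Ppp2ca, Zcchc10, Sox15, Nup85 and Sqstm1. These are descriptions of position and no test was made.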
